A study of Mus musculus with 6 samples.

Results

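The HP1 proteins and the factors that work with them in heterochromatin were examined in fetal liver (FL) cells that lack Pogz. The set held 10 genes: the HP1 genes Cbx1, Cbx3 and Cbx5, the zinc finger genes Adnp and Champ1, the corepressor gene Trim28, and the histone H3 lysine 9 methyltransferase genes Setdb1, Suv39h1, Suv39h2 and Ehmt2. Members were measured by every array probe set that is annotated to 1 gene only, and the brightest probe set of a gene was taken as its lead. By this rule 8 of the 10 genes were measured, with 24 probe sets, out of 18193 genes and 45037 probe sets tested. Adnp shares its only probe set with another gene, no probe set used here is named for Suv39h1, and neither gene has a value here.

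The study compared 3 Pogz-KO (Pogz-/-) FLs with 3 Pogz-WT (Pogz+/+) FLs at E14.5, each labelled a biological replicate, on Affymetrix mouse genome arrays. All embryos were on a C57BL/6 background after more than 10 generations of backcrossing. The knockout was a germline deletion, made by removing loxP-flanked Pogz exons with a cre transgene driven by the β-actin promoter, so all tissues of a Pogz-KO embryo carried it. The livers were minced, passed through a strainer and not sorted, so each array reads a mixture of hematopoietic and hepatic cells. In such bulk samples fewer cells of a type and less RNA per cell cannot be told apart.

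HP1 proteins read a histone mark. The chromodomain of HP1 binds histone H3 that is methylated on lysine 9, and the chromoshadow domain joins HP1 molecules into dimers and provides a docking surface for partner proteins. SUV39H1 and SUV39H2 write the trimethyl mark at pericentromeric repeats, EHMT2 (G9a) writes the dimethyl mark in euchromatin, and SETDB1 is brought to transposable elements by TRIM28 (KAP1) and KRAB zinc finger proteins. POGZ, ADNP and CHAMP1 are zinc finger proteins that associate with HP1, and POGZ is known in human cells for displacing HP1α from chromosome arms in mitosis. The arrays compare FL transcripts with and without Pogz, here those of its HP1 partners.

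Values are log2 of the deposited probe set intensity, and genotypes were compared with limma, a linear model across all genes, with p adjusted for the number of genes tested. The brightest Pogz probe set had log2 intensities of 9.16, 9.22 and 9.33 in Pogz-KO arrays, against 9.17, 9.03 and 8.95 in Pogz-WT arrays (log2 fold change 0.18, limma adjusted p = 0.644), and its 3 dimmer probe sets ran between -0.59 and 2.17 (adjusted p between 0.382 and 0.526). The positions of these probe sets with respect to the deletion are not annotated in the sources used here, and they therefore cannot serve as a check of the genotype. Pogz-WT replicate 1 stood apart, with a 3′ to 5′ signal ratio of the Actb control of 52.3, and a correlation with the other arrays of 0.794 to 0.810 across probe sets, against 0.884 to 0.906 among those others. The same ratio was 3.72 to 4.09 in Pogz-KO arrays and 5.50 and 6.63 in the other Pogz-WT arrays (exact two-sided permutation test over 6 arrays, p = 0.1, the smallest possible), and the part of this difference in the results was not tested. The median intensity was 29.7 to 31.6 in Pogz-KO arrays and 36.0 to 54.3 in Pogz-WT arrays, and across all genes the median log2 fold change was -0.17 over 6 arrays and -0.10 without Pogz-WT replicate 1. As defining markers of FL, 6 of 7 erythroid and 6 of 6 hepatoblast genes were above the array's own median intensity on every array. The exception was the α-globin gene Hba-a1, at log2 intensities of 2.81 to 4.15 in Pogz-KO arrays and 4.51 to 6.31 in Pogz-WT arrays. Whether its dim probe set reads the main α-globin transcripts was not tested, so these values do not give the α-globin level of FL. Xist, transcribed from the inactive X chromosome, was high in Pogz-KO replicates 1 and 2 and in Pogz-WT replicate 3, so both genotypes held both sexes.

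Loss of Pogz was not accompanied by a detectable change in any measured member. Over 6 arrays, 0 of 8 members and 0 of their 24 probe sets were called changed (limma, adjusted p under 0.05 and at least 1.5-fold), against 0% of all genes and 0% of all probe sets. At an unadjusted p under 0.05, limma gave 0 of 8 members and 2 of 24 member probe sets, against 13.1% of all genes and 11.7% of all probe sets. A fit that left out Pogz-WT replicate 1 and used the trend and robust options of limma called 2.73% of all genes and again 0 of 8 members, and 1.79% of all probe sets and 0 of 24. In that fit 0 members and 3 of the 24 member probe sets had an unadjusted p under 0.05, against 18.3% of all genes and 15.5% of all probe sets. Adjusted p of the members ran between 0.439 and 0.863 over 6 arrays and between 0.372 and 0.994 without that array.

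Among the HP1 genes, Cbx5 and Cbx1 were brightly detected and Cbx3 rested on a single dim probe set. Cbx5, which encodes HP1α, had log2 intensities of 11.15, 11.27 and 11.27 in Pogz-KO FLs, against 10.31, 11.29 and 11.10 in Pogz-WT FLs. The low value was that of Pogz-WT replicate 1, and the other arrays lay within a narrow band in which the genotypes overlapped. Over 6 arrays the log2 fold change was 0.33 ± 0.31 (SE, limma, adjusted p = 0.617). Without Pogz-WT replicate 1 it was 0.04 (95% interval -0.17 to 0.24, adjusted p = 0.884), which lies inside 1.5-fold in either direction.

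Cbx1, which encodes HP1β, had log2 intensities of 9.96, 9.82 and 9.77 in Pogz-KO FLs, against 9.82, 9.88 and 10.08 in Pogz-WT FLs. The genotypes overlapped, and Pogz-WT replicate 1 did not stand apart here. The log2 fold change was -0.08 over 6 arrays (95% interval -0.55 to 0.40, limma, adjusted p = 0.863) and -0.13 without Pogz-WT replicate 1 (-0.37 to 0.11, adjusted p = 0.580). Both intervals, from the fit across genes, lie inside 1.5-fold. In the fit across all probe sets the log2 interval over 6 arrays was -0.65 to 0.50, which passes a 1.5-fold fall.

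Cbx3, which encodes HP1γ, had 5 probe sets, of which 4 are annotated to a pseudogene as well and were left out. The remaining one had log2 intensities of 5.30, 4.46 and 4.68 in Pogz-KO FLs, against 6.16, 4.66 and 5.31 in Pogz-WT FLs, and was above the array's own median in 3 of 6 arrays. The genotypes overlapped and the spread within each was wide. For Cbx3 the log2 fold change was -0.56 (95% interval -1.70 to 0.57, limma, adjusted p = 0.570) over 6 arrays and -0.17 (-1.27 to 0.92, adjusted p = 0.900) without Pogz-WT replicate 1. A 1.5-fold fall lay inside the interval in both fits. A 1.5-fold rise lay just outside it over 6 arrays (upper bound 1.49-fold) and inside it without Pogz-WT replicate 1 (1.90-fold). These bounds are from the fit across genes. In the fit across all probe sets the upper log2 bound over 6 arrays was 0.61, so a 1.5-fold rise lay inside the interval.

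**Figure D1:**
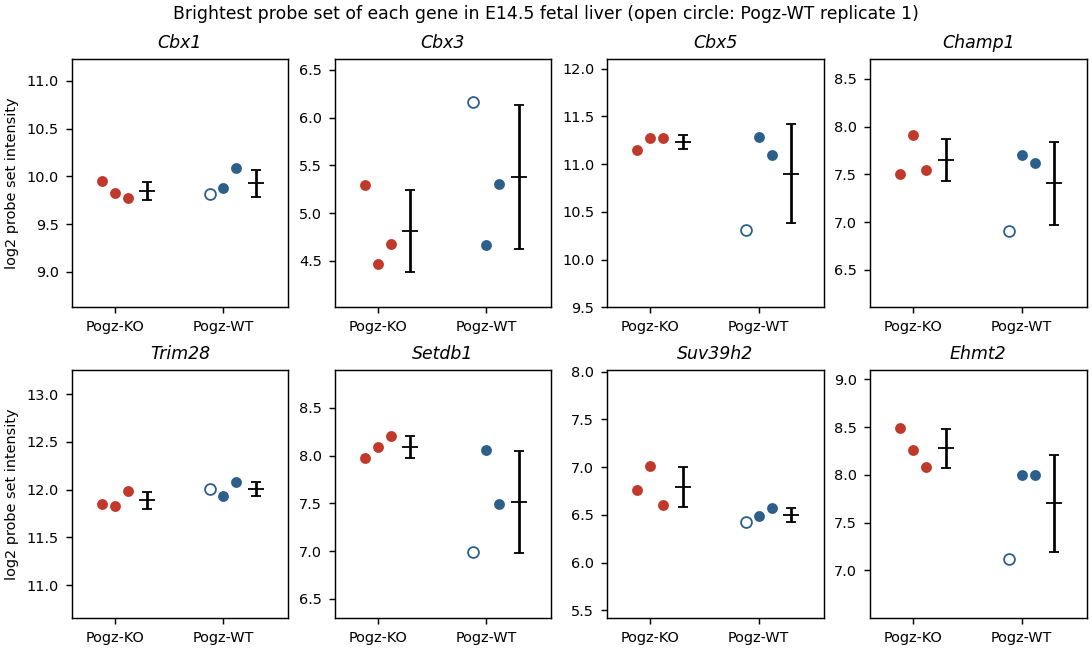
Log2 intensity of the brightest probe set of each of 8 genes in 3 Pogz-KO and 3 Pogz-WT FLs, with 1 point for each array, the open circle for Pogz-WT replicate 1, and bars for the mean and SD (n = 3 each); every panel spans the same range of log2 units. The Pogz-KO points of Suv39h2 and Ehmt2 lie above all Pogz-WT points, while Pogz-WT replicate 1 lies lowest for Cbx5, Champ1, Setdb1, Suv39h2 and Ehmt2.

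Of the zinc finger proteins that associate with HP1, Champ1 was measured. CHAMP1 takes part in the attachment of chromosomes to the spindle and in DNA repair. Its log2 intensities were 7.50, 7.91 and 7.55 in Pogz-KO FLs, against 6.91, 7.70 and 7.62 in Pogz-WT FLs. Again the lowest array was Pogz-WT replicate 1, and the other Pogz-WT values fell among the Pogz-KO values. Its log2 fold change was 0.24 ± 0.29 (SE, limma, adjusted p = 0.701) over 6 arrays, and without that array it was -0.01 (95% interval -0.40 to 0.38, adjusted p = 0.994).

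Trim28 was the brightest member and varied little between arrays. Its brightest probe set is 1456308_x_at, and the suffix x marks probe sets with probes that can match other transcripts. TRIM28 bridges KRAB zinc finger proteins to HP1 and SETDB1. Its log2 intensities were 11.85, 11.83 and 11.99 in Pogz-KO FLs, against 12.01, 11.94 and 12.08 in Pogz-WT FLs, and the genotypes overlapped. Both fits gave a log2 fold change of -0.12 (95% interval -0.57 to 0.33, limma adjusted p = 0.760 over 6 arrays, and -0.31 to 0.07, adjusted p = 0.497 without Pogz-WT replicate 1). This was the narrowest interval of the 8 members in both fits.

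Setdb1, whose product trimethylates histone H3 lysine 9 together with TRIM28, had the largest moderated t of the members over 6 arrays. Its log2 intensities were 7.98, 8.09 and 8.21 in Pogz-KO FLs, against 7.0, 8.06 and 7.50 in Pogz-WT FLs. Pogz-WT replicate 1 was lowest, replicate 3 was also below all Pogz-KO arrays, and replicate 2 lay among them. For Setdb1 the log2 fold change was 0.58 ± 0.32 (SE, limma, adjusted p = 0.439) over 6 arrays and 0.31 (95% interval -0.09 to 0.72, adjusted p = 0.399) without Pogz-WT replicate 1, so a higher level by 1.5-fold was not resolved. Setdb1 lies on chromosome 3 with Pogz, with 22 protein-coding genes between them in the GRCm38 gene table, and the part of DNA linked to the targeted allele in its value was not tested. Across the 6 arrays, the genes with the pattern most like that of Setdb1 were Rpe (Pearson r = 0.994), Cog3 (r = 0.992) and Desi1 (r = 0.990), picked as the highest of all genes, so the values are a description.

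Ehmt2 and Suv39h2 were the members whose arrays did not overlap between genotypes, both higher in Pogz-KO FLs. Ehmt2 had log2 intensities of 8.49, 8.26 and 8.08 in Pogz-KO FLs, against 7.11, 7.99 and 8.0 in Pogz-WT FLs. The lowest array was Pogz-WT replicate 1, and the lowest Pogz-KO array was close to the other Pogz-WT arrays. With Pogz-WT replicate 1 left out the genotypes still did not overlap, as for 14.9% of all genes with Pogz-KO arrays higher. For Ehmt2 the log2 fold change was 0.58 ± 0.32 (SE, limma, adjusted p = 0.440) over 6 arrays and 0.28 (95% interval -0.06 to 0.63, adjusted p = 0.372) without that array.

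Suv39h2 had log2 intensities of 6.76, 7.02 and 6.60 in Pogz-KO FLs, against 6.43, 6.49 and 6.57 in Pogz-WT FLs. The separation was narrow, and Pogz-WT replicate 1 was close to the other Pogz-WT arrays. The log2 fold change was 0.29 ± 0.20 (SE, limma, adjusted p = 0.514) over 6 arrays and 0.26 (95% interval -0.24 to 0.75, adjusted p = 0.585) without that array. Arrays of 10.8% of all genes did not overlap with the Pogz-KO arrays higher, and those of 16.3% did not overlap with the Pogz-KO arrays lower, against 2 and 0 of the 8 members. With 8 genes, these counts do not set the members apart from the rest.

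The measurements thus divide the members by how closely a change was bounded. In the fit across genes, over 6 arrays as deposited, the 95% interval lay inside 1.5-fold for 2 of 8 members, Cbx1 and Trim28. Without Pogz-WT replicate 1 it did so for 4 of 8, with Cbx5 and Champ1 added. These are intervals of the brightest probe sets. The fit across all probe sets gave wider intervals over 6 arrays. There Cbx1 (-0.65 to 0.50) and Trim28 (-0.68 to 0.43) passed a 1.5-fold fall. In that fit some dimmer probe sets of these genes passed 1.5-fold as well. For Cbx1, 1431773_at and 1450797_a_at had log2 intervals of -2.39 to -0.14 and -2.21 to -0.34 over 6 arrays. For Cbx5 without Pogz-WT replicate 1, 1450416_at had -0.83 to 0.03, 1421933_at had -0.85 to 0.05 and 1421932_at had -2.13 to 2.05. Only 1421934_at stayed inside (-0.42 to 0.42). For Trim28, 1415869_a_at had -0.72 to 0.49 over 6 arrays and stayed inside without Pogz-WT replicate 1 (-0.45 to -0.03). For Champ1 without Pogz-WT replicate 1, 1436020_at had -0.88 to 0.35 and 1443658_at had -2.26 to 2.51. For the brightest probe sets of Setdb1, Suv39h2 and Ehmt2 the upper bound passed 1.5-fold with and without Pogz-WT replicate 1, while the lower bound did not. In the fit across genes without Pogz-WT replicate 1 these upper bounds were 1.65-fold, 1.68-fold and 1.54-fold. Pogz-WT replicate 1 was the lowest of the 6 arrays for the brightest probe set of 5 of 8 members, against 24.2% of all genes, a share that differed with brightness among probe sets (18.3% at a mean log2 intensity between 4 and 6, 31.5% between 6 and 8, 48.7% between 8 and 10 and 39.4% above 10). The log2 fold changes of Setdb1 and Ehmt2 were both 0.58 over 6 arrays, and 0.31 and 0.28 without Pogz-WT replicate 1. The part of that array in these values was not tested. The median log2 fold change of the members was 0.27 over 6 arrays and 0.02 without that array, beside the -0.17 and -0.10 of all genes.

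Dimmer probe sets of the same genes did not always follow the brightest. Of the 24 member probe sets, 15 had a log2 fold change below 0 over 6 arrays and 16 without Pogz-WT replicate 1, and so did 27855 and 26357 of all 45037 probe sets. Of the 5 Cbx1 probe sets, 1433718_a_at and 1436266_x_at were the bright ones, and each of the 3 dimmer ones had every Pogz-KO array below every Pogz-WT array. Arrays did not overlap in this direction for 15.8% of all probe sets, and in the opposite one for 9.10%. Among the member probe sets the counts were 4 and 2 of 24.

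The first of these Cbx1 probe sets, 1422935_x_at, had log2 intensities of 6.71, 6.72 and 6.31 in Pogz-KO FLs, against 6.80, 7.24 and 7.34 in Pogz-WT FLs. The second, 1431773_at, read 4.93, 5.34 and 4.16 in Pogz-KO FLs, against 6.63, 6.10 and 5.50 in Pogz-WT FLs. The third, 1450797_a_at, read 4.99, 4.83 and 4.39 in Pogz-KO FLs, against 6.33, 6.34 and 5.37 in Pogz-WT FLs. All 3 were lower in Pogz-KO FLs by a margin that did not pass the test across all probe sets. Their log2 fold changes were -0.55, -1.26 and -1.28 over 6 arrays (limma, adjusted p = 0.468, 0.406 and 0.388) and -0.71, -0.99 and -1.12 without Pogz-WT replicate 1 (adjusted p = 0.127, 0.326 and 0.248). The value of 0.127 was the lowest adjusted p of any member probe set in either fit. For 1436266_x_at the log2 fold change was 0.46 over 6 arrays and 0.07 without that array. Which Cbx1 transcripts each probe set reads is not known here, and the suffix x marks probe sets with probes that can match other transcripts.

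**Figure D2:**
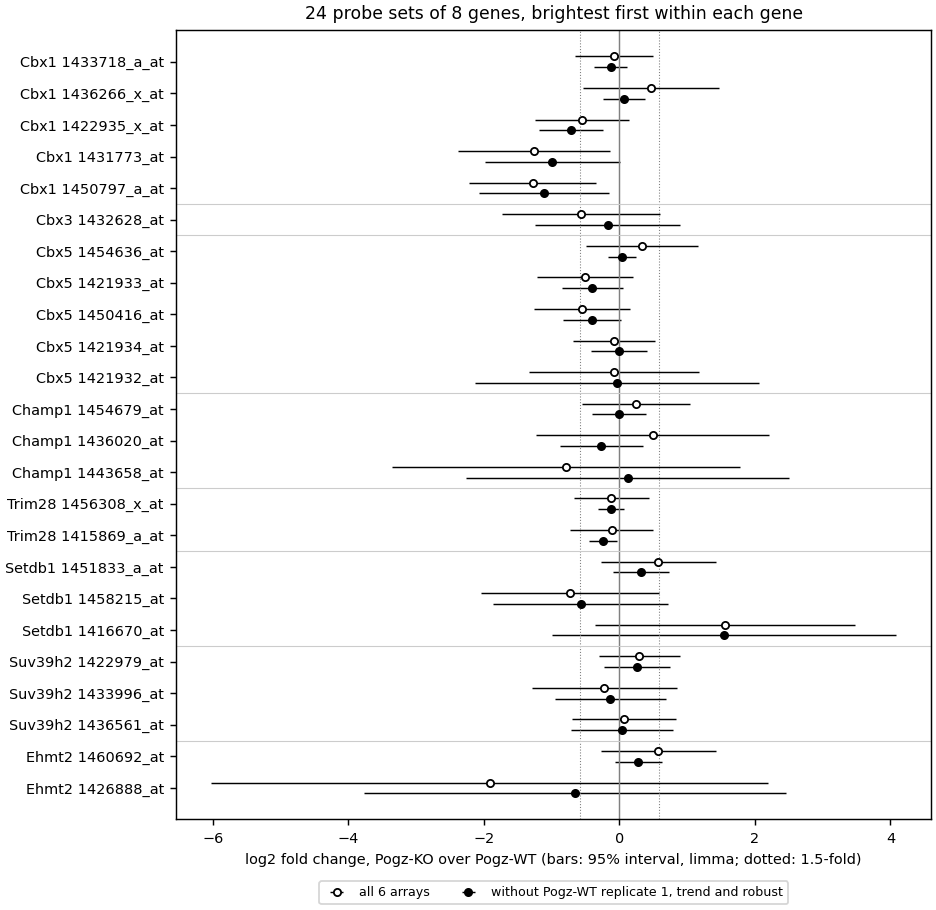
Log2 fold change of Pogz-KO over Pogz-WT for the 24 probe sets of 8 genes, brightest first within each gene, with 95% limma intervals, open for all 6 arrays and filled without Pogz-WT replicate 1 (trend and robust), and dotted lines at 1.5-fold. The intervals are those of the fit across all probe sets. The 3 dimmer Cbx1 probe sets lie left of 0 while the brightest lies near it, and the dimmest probe sets of Setdb1, Champ1 and Ehmt2 have intervals several log2 units wide.

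Cbx5 split in a similar way at a higher signal. Its probe set 1450416_at read 7.64, 7.49 and 7.14 in Pogz-KO FLs, against 8.28, 7.69 and 7.95 in Pogz-WT FLs, with no overlap (log2 fold change -0.55, limma adjusted p = 0.472 over 6 arrays, and -0.40, adjusted p = 0.361 without Pogz-WT replicate 1). Its probe set 1421933_at read 7.77, 7.57 and 7.36 in Pogz-KO FLs, against 8.28, 8.25 and 7.69 in Pogz-WT FLs, where 1 array of each genotype crossed (-0.51, adjusted p = 0.491, and -0.40, adjusted p = 0.379). The third, 1421934_at, somewhat dimmer, was -0.08 over 6 arrays and 0.00 at 2 decimals without that array, and the dim 1421932_at was -0.07 and -0.04. So the probe sets of Cbx5 gave differences of opposite sign over 6 arrays, none of which passed the test.

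The remaining genes had dimmer probe sets too. The second Trim28 probe set, 1415869_a_at, had a log2 fold change of -0.11 over 6 arrays and -0.24 (95% interval -0.45 to -0.03, adjusted p = 0.248) without Pogz-WT replicate 1, on the same side as the first. It read 10.59, 10.46 and 10.53 in Pogz-KO FLs, below the 10.82 and 10.71 of Pogz-WT replicates 2 and 3. With Pogz-WT replicate 1 left out, 21% of all probe sets had every Pogz-KO array lower. Suv39h2 had 2 more probe sets, at -0.22 and 0.07 over 6 arrays, whose arrays overlapped, so the separation of its brightest probe set was not seen in them. The second Champ1 probe set, 1436020_at, was 0.49 over 6 arrays and -0.27 without Pogz-WT replicate 1, which read 4.10 there, against 6.19 and 6.57 in the other Pogz-WT FLs and 5.77 to 6.34 in Pogz-KO FLs. The remaining probe sets of Champ1, Setdb1 and Ehmt2 were dim, at mean log2 intensities of 5.33 or less in either genotype and with a wide spread within a genotype. Over 6 arrays Setdb1 gave -0.73 with 1458215_at and 1.56 with 1416670_at, and Champ1 gave -0.79 with 1443658_at (adjusted p = 0.564, 0.460 and 0.749). For Ehmt2, 1426888_at read 0.63, 5.01 and 0.74 in Pogz-KO FLs, against 6.57, 3.50 and 2.06 in Pogz-WT FLs, a spread that leaves its log2 fold change of -1.92 (adjusted p = 0.621) without a settled direction.

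The sign of a difference also moved with brightness in the whole array. The median log2 fold change of all probe sets over 6 arrays was -0.63 where the mean log2 intensity was under 4, -0.37 between 4 and 6, and 0.00 at 2 decimals between 6 and 8. It was 0.12 between 8 and 10 and -0.09 above 10. Without Pogz-WT replicate 1 the medians at the dim end were -0.38 and -0.25. Of the 24 member probe sets, 4 and 6 fell into the 2 dimmest ranges, and 2 of the 3 dimmer Cbx1 probe sets were among them, beside a median that is itself below 0. The part of this shift in the Cbx1 values was not tested.

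**Figure D3:**
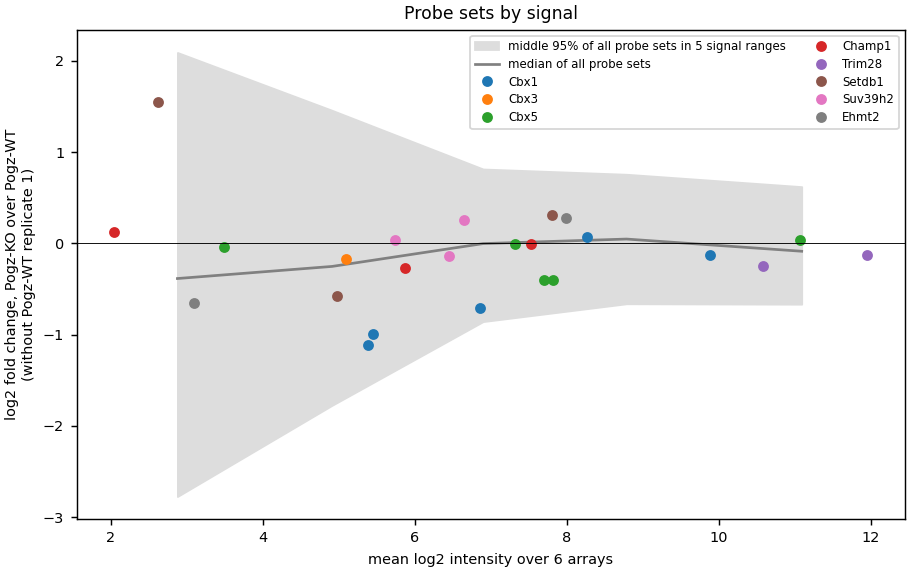
Log2 fold change of Pogz-KO over Pogz-WT without Pogz-WT replicate 1 against the mean log2 intensity over 6 arrays for the 24 member probe sets, coloured by gene, with the median (line) and the middle 95% (gray) of all probe sets in 5 signal ranges. The line and band join the values at the median intensity of each range. Every member probe set lies within the middle 95% of its own range, and the median is lowest (-0.38) at the dim end.

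Beyond the members, 37 of 39 other listed heterochromatin genes were measured. They comprise other methyltransferases, the HUSH complex, TRIM family corepressors, HP1 partners at centromeres and replication factors of heterochromatin. None was called over 6 arrays, and their median log2 fold change was 0.09. Without Pogz-WT replicate 1, 1 rose and 4 fell at an adjusted p under 0.05 (limma, trend and robust), beside 2.41% and 2.07% of all genes. With the 1.5-fold cutoff the counts were 1 and 2, beside 1.73% and 1% of all genes. The median of the 37 genes was 0.00 at 2 decimals. Each of these calls rests on 2 Pogz-WT arrays and on the trend and robust options together: none was made over 6 arrays, and with that array left out of the plain fit none was made either (adjusted p between 0.237 and 0.381 for the 5 genes).

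Incenp, Sgo1, Cdca8 and Lrwd1 were the 4 genes that fell. Incenp encodes the scaffold of the chromosomal passenger complex, which binds HP1, and its brightest probe set read 12.41, 12.28 and 12.32 in Pogz-KO FLs, against 13.81, 12.94 and 13.01 in Pogz-WT FLs. Sgo1, which encodes the shugoshin that protects centromeric cohesion and also binds HP1, read 9.03, 8.93 and 8.98 in Pogz-KO FLs, against 9.71, 9.64 and 9.59 in Pogz-WT FLs. For both genes every Pogz-KO array was below every Pogz-WT array, and for Sgo1 Pogz-WT replicate 1 did not stand apart. Without that array the log2 fold change of Incenp was -0.64 ± 0.07 (SE, adjusted p = 0.00146) and that of Sgo1 was -0.64 ± 0.11 (SE, adjusted p = 0.00906), against adjusted p = 0.347 and 0.329 over 6 arrays. The second Sgo1 probe set was also lower (-0.44, adjusted p = 0.189). The 4 other Incenp probe sets were at 0.07, -0.22, 0.93 and -1.17 (adjusted p between 0.387 and 0.809), so the fall of Incenp passed the test only with 1439436_x_at, whose suffix marks probes that can match other transcripts.

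Cdca8, which encodes borealin of the same passenger complex, and Lrwd1, which encodes an origin recognition partner found at heterochromatin, fell less. Cdca8 read 11.40, 11.40 and 11.43 in Pogz-KO FLs, against 12.51, 11.75 and 11.84 in Pogz-WT FLs (log2 fold change -0.39, adjusted p = 0.0197 without Pogz-WT replicate 1). Lrwd1 read 11.32, 11.09 and 11.05 in Pogz-KO FLs, against 12.36, 11.57 and 11.63 in Pogz-WT FLs (-0.45, adjusted p = 0.0273). Neither passed 1.5-fold, and their other probe sets gave -0.31 and 0.08 for Cdca8 and -0.15 for Lrwd1, none of them called. The brightest Lrwd1 probe set, 1437194_x_at, carries the same x suffix as that of Incenp. Aurkb and Birc5, the other subunits of the passenger complex, were not called in either fit (0.24 and 0.37 over 6 arrays, -0.16 and 0.03 without Pogz-WT replicate 1).

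Trim24 was the gene that rose. TRIM24 is a TRIM family corepressor related to TRIM28, and its brightest probe set read 7.99, 8.23 and 8.25 in Pogz-KO FLs, against 4.47, 6.81 and 7.0 in Pogz-WT FLs. All Pogz-KO arrays were above all Pogz-WT arrays, with Pogz-WT replicate 1 lowest by far. The log2 fold change was 1.25 ± 0.17 (SE, adjusted p = 0.00273) without that array and 2.06 (adjusted p = 0.360) with it. One other Trim24 probe set was at 1.13 (adjusted p = 0.0978) and the remaining one at -0.03. Adnp2, the paralog of Adnp, read 7.53, 7.67 and 7.81 in Pogz-KO FLs, against 6.65, 7.06 and 7.22 in Pogz-WT FLs, without overlap, but was called in neither of these fits (log2 fold change 0.69, adjusted p = 0.354 over 6 arrays, and 0.53, adjusted p = 0.127 without Pogz-WT replicate 1).

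**Figure D4:**
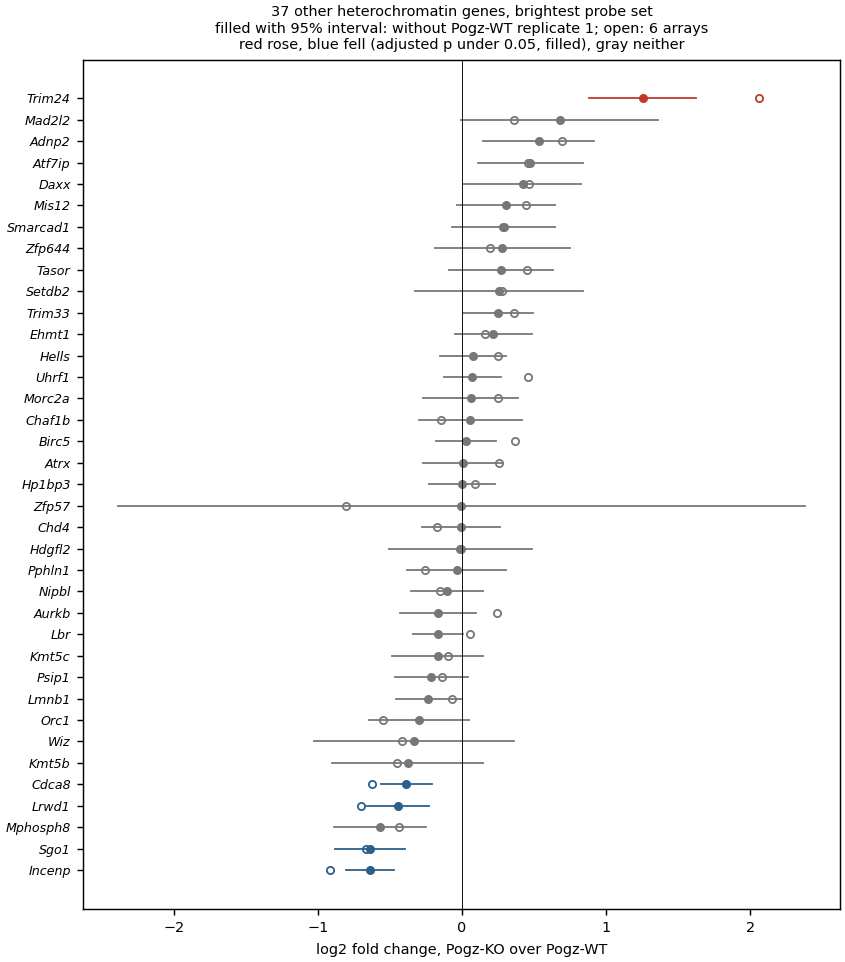
Log2 fold change of Pogz-KO over Pogz-WT for the brightest probe set of 37 other heterochromatin genes, filled with a 95% interval without Pogz-WT replicate 1 (trend and robust) and open over 6 arrays, coloured red or blue where the filled value rose or fell at an adjusted p under 0.05. Trim24 stands at the top at 1.25, and Incenp, Sgo1, Lrwd1 and Cdca8 near the bottom between -0.64 and -0.39.

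Some markers of proliferating cells and of erythroid cells fell in the same fit, in which 2.07% of all genes fell. Of 11 proliferation markers, 2 fell, the mitotic kinase gene Cdk1 (-0.55, adjusted p = 0.0176) and the ribonucleotide reductase gene Rrm2 (-0.49, adjusted p = 0.00232), and the median log2 fold change was -0.25. Their mean log2 intensity per array was 11.6 in each Pogz-KO FL and 11.7 to 11.9 in Pogz-WT FLs. Of 7 erythroid markers, 3 fell, Alas2, Klf1 and Slc4a1, with a median of -0.39. Their mean per array was 10.6 to 10.9 in Pogz-KO FLs and 11.2 to 11.4 in Pogz-WT FLs. The mean of the 7 markers includes the dim Hba-a1 probe set, which widens this gap. Its log2 fold change of -1.72 was the most negative of the 7 and was not called (limma, adjusted p = 0.249). Under median centring 0 of the 11 proliferation markers and 1 of the 7 erythroid markers fell (medians 0.02 and -0.12), beside 0.55% of all genes. Under quantile normalization 2 and 1 fell (medians -0.16 and -0.31), beside 1.64% of all genes. The part of these shifts in the falls of Incenp, Sgo1, Cdca8 and Lrwd1 was not tested.

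The scale of the arrays bore on these calls. Over 6 arrays, centring each array on its median moved the median of all genes to 0.29, and the small negative values of Cbx1 and Trim28 turned to 0.38 and 0.34 with it. Without Pogz-WT replicate 1, the median of all genes was 0.18 under median centring and -0.02 under quantile normalization, against -0.10 as deposited. Under median centring Incenp still fell (-0.37, adjusted p = 0.0268) and Trim24 still rose (1.52, adjusted p = 0.000349), while Sgo1 (-0.36, adjusted p = 0.0894), Lrwd1 (-0.17, adjusted p = 0.413) and Cdca8 (-0.12, adjusted p = 0.560) were no longer called. Adnp2 was called under median centring (0.80, adjusted p = 0.0157). The balance of the 37 genes turned with this scale, to 9 that rose and 1 that fell, beside 10.1% and 0.55% of all genes. Under quantile normalization all 5 calls were made again. Of the members, Ehmt2 had an adjusted p of 0.0476 under median centring without Pogz-WT replicate 1 and with trend and robust, at a log2 fold change of 0.55, which is under 1.5-fold. Pogz itself was at 0.52 with an adjusted p of 0.0230 in the same setting, higher in Pogz-KO FLs. In the other settings run the adjusted p of Ehmt2 was up to 0.715 and never under 0.05.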

How the data were processed

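The authors labelled 100 ng of RNA per sample by 3′ IVT and processed the arrays with Expression Console of Affymetrix (version and algorithm not stated in the material used). The deposited values are linear intensities with a 2% trimmed mean of 150 on each array. Log2 was taken with no pseudocount, since 0 values were at or under 0. Arrays were grouped by genotype from their titles. After 64 control probe sets were left out, 45037 were tested; 34945 name 1 gene, 932 several and 9160 are unnamed here. Genotypes were compared with R 4.3.3 and limma 3.58.1 (lmFit, then eBayes; two-sided; adjusted by Benjamini-Hochberg over 18193 genes or over the probe sets). A count of called genes used an adjusted p under 0.05 and the methods' 1.5-fold; a single gene rose or fell at an adjusted p under 0.05. P-values measure the spread between samples, whose litters are not given, and 3 arrays per genotype limit the precision.

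The members, lists and alternatives, the fit without Pogz-WT replicate 1 included, were chosen with earlier results of these data known. The text names all members, Pogz, the 4 other heterochromatin genes with the largest moderated t over 6 arrays, any that were called, and the 3 genes most like the leading member. Aurkb, Birc5 and the named markers fall outside this rule and were chosen after their values were seen. Of the marker lists not described with the results, without Pogz-WT replicate 1, 1 of 6 hepatoblast markers fell, 2 of 8 granulocyte markers rose, and 0 of 7 macrophage, 0 of 5 megakaryocyte and 0 of 5 B cell markers changed. In that fit 2.41% of all genes rose and 2.07% fell. Of 3 Y-linked genes and Xist none changed. The calculations were tested on simulated arrays. Alternatives were quantile normalization, median centring, a pseudocount of 16, a filter on dim probe sets, trend and robust, the replicate block, leaving out each array, a Y-linked covariate, the methods' test, no minimum fold, and the mean of all probe sets of a gene.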

Additional observations from a re-analysis of the deposited data

How the results depend on the processing

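No member was called, at 1.5-fold, under any of the 24 alternatives, and no member probe set under any of the 23 that apply to probe sets, leaving out each array included (0 to 0 calls). Setdb1 and Suv39h2 kept their direction under all that give a fold change. Other directions turned. Cbx1 became 0.38 under median centring, 0.14 under median centring without Pogz-WT replicate 1, and 0.0019 without Pogz-WT replicate 3 in the plain fit and with trend and robust. Cbx3 became 0.0972 under quantile normalization and 0.0994 under median centring, both without Pogz-WT replicate 1 and with trend and robust. Trim28 became 0.34 under median centring and 0.15 with Pogz-WT replicate 1 also left out. Champ1 became -0.0055 without Pogz-WT replicate 1 and -0.0506 with quantile normalization as well. With the mean of all probe sets of a gene, Cbx5 became -0.18, Champ1 -0.0169 and Ehmt2 -0.67. Leaving out each array moved Cbx1 between -0.13 and 0.0019 and Champ1 between -0.0055 and 0.39. It moved Cbx3 between -0.17 (without Pogz-WT replicate 1) and -0.92 (without Pogz-WT replicate 2), Cbx5 between 0.04 and 0.52, Setdb1 between 0.31 and 0.85 and Ehmt2 between 0.28 and 0.73, with the low end without Pogz-WT replicate 1 and the high end without Pogz-WT replicate 2 (replicate 3 for Ehmt2), and Suv39h2 between 0.18 (without Pogz-KO replicate 2) and 0.39 (without Pogz-KO replicate 3). Trim28 moved between -0.17 (without Pogz-KO replicate 3) and -0.08 (without Pogz-WT replicate 3). The causes were not tested, and none of these values passed the test.

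Genes called numbered 0 over 6 arrays, 22 with trend and robust, and, with trend and robust, 497 without Pogz-WT replicate 1, 420 with quantile normalization added, 1404 with median centring added, 1 without Pogz-KO replicate 3 and 23 without Pogz-WT replicate 2; the plain fit gave 0 to 0 when leaving out each array. Of the 1404, 1341 were higher in Pogz-KO FLs, against 315 of the 497. Other heterochromatin genes called at 1.5-fold numbered 3 without Pogz-WT replicate 1 with trend and robust, 3 with quantile normalization and 4 with median centring, against 0 over 6 arrays. The matching shares of all genes were 2.73%, 2.31% and 7.72%, against 0%. The replicate block called 0 genes, 0 members and 0 other heterochromatin genes. Same-numbered arrays did not deviate together (r = 0.00412, -0.00884 and -0.0133 across genes), and samples were treated as unpaired. Differently numbered arrays ran between -0.0148 and 0.0242. This check uses deviations from means of 3 arrays over all genes, dim ones included, so it cannot exclude a shared litter or batch. Dim probe sets limit what can be said of Cbx3, and 2 Pogz-WT arrays limit the fit without replicate 1.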
